A study of Mus musculus with 4 samples.

Results

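Among 6054 CD45+ immune cells sorted from mouse esophagus, 209 cells (3.45%) were macrophages with high complement C1q transcripts, Trem2 or Gpnmb transcripts and few Spp1 transcripts. They are called Trem2/Gpnmb macrophages here. The cells were chosen by their own UMI counts: a cell was a member when its C1qa, C1qb and C1qc unique molecular identifiers (UMIs, each standing for a captured transcript) summed to 10 or more, Spp1 was below 10, Trem2 and Gpnmb summed to 3 or more, and the cell cycle genes Mki67 and Top2a summed to less than 3. The members are set against 920 Trem2-low C1q macrophages, which met the same rule except that Trem2 and Gpnmb summed to less than 3, and against 131 Spp1 macrophages, which had 10 or more Spp1 UMIs at any Trem2 or Gpnmb level. All 3 classes together made 1260 non-cycling C1q macrophages.

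The cells came from 5 Il20rb knock-out mice (KO1 to KO5) and 5 wild-type mice (WT1 to WT5), all carried through the same model of eosinophilic esophagitis, a food-antigen-driven inflammation of the esophagus. Every mouse received the vitamin D analogue MC903 and ovalbumin on the ear daily for 14 days, ovalbumin in the drinking water from day 14 for 4 days, ovalbumin by gavage on days 15 and 17, and was sampled on day 18, so no group is free of the challenge. The labels give neither the strain background nor the age of the mice, nor how the Il20rb deletion was made. Suspensions from the 10 mice were tagged with hashtag antibodies, pooled, sorted for live CD45+ cells and loaded on 2 wells, so a mouse and not a cell is the replicate below. Il20rb encodes a receptor subunit for interleukins of the IL-20 family. It had 0 UMIs in the Trem2/Gpnmb macrophages of either genotype and 3 UMIs in the Trem2-low C1q macrophages, too few to check the deletion in these cells.

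TREM2 is a lipid-sensing surface receptor of macrophages and microglia that signals through the adaptor TYROBP. GPNMB is a lysosome-linked membrane glycoprotein whose gene is a target of the MiT/TFE transcription factors, which drive lysosome genes. Macrophages rich in TREM2, GPNMB and apolipoprotein E are known from fat tissue, atherosclerotic plaques, injured liver and brain, where they take up lipid and dying cells. MHC class II molecules, which present antigen to CD4 T cells, depend on the transactivator CIITA, and resistin-like and C-type lectin genes such as Retnla and Mgl2 are used as marks of macrophages exposed to type 2 cytokines.

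The label of these cells held better for Trem2 than for Gpnmb. Of the 209 members, 155 had 0 Gpnmb UMIs and 54 had at least 1. By Trem2 alone 198 members met the threshold, 25 met it by Gpnmb alone, 20 by each of the genes, and 6 only by the sum. Trem2 led in 194 members, Gpnmb in 14, and 1 was tied. The members held a median of 4 Trem2 UMIs (highest 25) and 48 C1q UMIs (lowest 10, highest 211), and 113 had 0 Spp1 UMIs. Near the thresholds, 76 members had exactly 3 Trem2 and Gpnmb UMIs and 111 cells with 2 lay just outside; 20 members had 10 to 14 C1q UMIs, and 17 cells with 5 to 9 lay just outside; 34 members had 5 to 9 Spp1 UMIs, and 22 cells with 10 to 14 lay just outside. The cell cycle limit removed 12 cells.

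The cells were chosen by raw UMIs, and the classes differed in depth. The median was 8264 UMIs per Trem2/Gpnmb macrophage, 5356.5 per Trem2-low C1q macrophage and 10779 per Spp1 macrophage. The part of the rule in this difference was not tested. Knock-out members had a median of 7151.5 UMIs and wild-type members 8501. Summed over the members of a mouse, the counts lay between 66424 and 380452 UMIs. Of the cells of the whole table, 2633 were knock-out and 3421 wild-type, and 2 barcodes occurred in both wells, 1 of them on a member. Doublet scores in the top 5% were held by 6.70% of Trem2/Gpnmb and 6.96% of Trem2-low C1q macrophages.

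The genes that chose the cells are described here without a test, as CPM, a gene's UMIs scaled to the total UMIs of the class in a mouse. Trem2, the receptor, averaged 587 ± 117 CPM in Trem2/Gpnmb macrophages, 81.7 ± 15.0 CPM in Trem2-low C1q macrophages and 687 ± 441 CPM in Spp1 macrophages (SD, n = 10 mice). In the members it lay between 435 and 757 CPM, so every mouse was above every Trem2-low value. Gpnmb was uneven over mice, with 74.3, 125, 29.5, 105 and 60.0 CPM in KO1 to KO5 and 15.6, 479, 119, 134 and 24.5 CPM in WT1 to WT5. WT2 stood well above the other 9 mice. On average Gpnmb was 117 ± 134 CPM in members, 2.67 ± 2.10 CPM in Trem2-low C1q macrophages and 432.5 ± 402 CPM in Spp1 macrophages (SD, n = 10). It had UMIs in 25.8% of members and 53.4% of Spp1 macrophages. Of the 131 Spp1 macrophages, 93 also had 3 or more Trem2 and Gpnmb UMIs, so these 2 genes were not particular to the members. C1qa, a chain of the complement starter C1q, averaged 2670 ± 684 CPM in members and 2371 ± 625.1 CPM in Trem2-low C1q macrophages (SD, n = 10). Spp1, which encodes osteopontin, averaged 198 ± 79.7 CPM in members, 68.4 ± 36.3 CPM in Trem2-low C1q macrophages and 4529 ± 3009 CPM in Spp1 macrophages (SD, n = 10). The averages of Spp1 macrophages rest in part on very few cells, with 33, 1, 3, 3 and 8 cells in KO1 to KO5 and 35, 21, 9, 12 and 6 in WT1 to WT5. The highest Trem2 and Gpnmb values of that class (1716 and 1373 CPM) came from the single cell of KO2. Its highest Spp1 value (11530 CPM) came from the 3 cells of KO4.

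Markers of the wider macrophage lineage were present in the members. Mrc1, the mannose receptor, averaged 652 ± 219 CPM and Adgre1, which encodes F4/80, 272 ± 108 CPM (SD, n = 10). All 8 core macrophage markers had UMIs. Markers of most other cells were at or near 0: the 4 mast cell genes had 0 UMIs, the T cell genes 8, the B cell genes 9 (Cd79a and Ms4a1 at 0), the natural killer genes 4 (Ncr1 and Eomes at 0), the epithelial genes 4 (Krt5 and Krt14 at 0), and the fibroblast genes 4. The 5 neutrophil genes summed to 77 UMIs and the 5 genes of group 2 innate lymphoid cells to 38 (Il5 at 0). The 4 genes of type 1 dendritic cells summed to 305 UMIs (Xcr1, a defining marker, at 0), with 125 to 315 CPM in knock-out and 70.2 to 237 CPM in wild-type mice, beside 160 to 356 CPM in Trem2-low C1q macrophages. The monocyte list was high, with 7879 UMIs over its 6 genes and between 3754 and 5809 CPM in knock-out and between 2965 and 5738 CPM in wild-type mice. Ccr2, the chemokine receptor of blood monocytes, averaged 887 ± 152 CPM in the members and 1025 ± 197 CPM in Trem2-low C1q macrophages (SD, n = 10). Ly6c2, a surface marker of inflammatory monocytes, separated mice rather than genotypes, with 371, 146, 9.83, 557 and 945 CPM in KO1 to KO5 and 608, 85.6, 24.4, 31.5 and 180 CPM in WT1 to WT5. The same mice were high in cells outside the 3 macrophage classes, with 714 (KO1), 475 (KO4), 1462 (KO5) and 637 CPM (WT1). The remaining mice had 42.1 to 197 CPM there. The 7 markers of vessel-associated resident macrophages all had UMIs in the members, 953 in all, and did not move together. Lyve1 had UMIs in 5.74% of members, 15.2% of Trem2-low C1q macrophages, 3.05% of Spp1 macrophages and 0.292% of cells outside the 3 macrophage classes. Folr2, a folate receptor, went the other way, with UMIs in 37.8% of members and 22.3% of Trem2-low C1q macrophages. It was more frequent still in Spp1 macrophages (55.0%) and had UMIs in 2.94% of cells outside the classes. Folr2 averaged 159 ± 134.5 CPM in members, 102 ± 49.0 CPM in Trem2-low C1q and 179 ± 112 CPM in Spp1 macrophages (SD, n = 10). The classes differed in depth, and its part in these percentages was not tested.

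Relative to Trem2-low C1q macrophages of the same mice, 20 of 30 tested lysosome genes were higher and 7 of 8 tested MHC class II genes lower in Trem2/Gpnmb macrophages. Smaller shares passed elsewhere, with 5 of 16 lipid uptake and efflux genes and 4 of 15 efferocytosis genes higher and 4 of 13 alternative activation genes lower. This comparison asked which other genes differ once C1q macrophages are split by Trem2 and Gpnmb. It used UMI sums per mouse and class from the 9 mice with 10 or more cells in each class (KO5 had 9 members and was left out), with the mouse as a block in edgeR's quasi-likelihood test. The 8 genes of the rule were not tested. Of 4230 genes, 264 (6.24%) passed a Benjamini-Hochberg adjusted p of 0.05, 135 higher (3.19%) and 129 lower (3.05%) in Trem2/Gpnmb macrophages. Levels from here on are CPM after TMM scaling within a comparison, and changes are log2 fold changes with their standard error.

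Lysosome genes rose in most cases. Of the 35 genes of the list 30 were tested, and 20 rose and 0 fell in Trem2/Gpnmb macrophages, with a median log2 fold change of 0.53 against -0.01 over all genes tested. Cd63, a membrane protein of late endosomes and lysosomes, lay between 304 and 899 CPM (median 503) in Trem2/Gpnmb macrophages and between 114 and 428 CPM (median 159) in Trem2-low C1q macrophages, and its log2 fold change was 1.45 ± 0.13 (edgeR adjusted p = 6.7e-10). It was higher in 9 of 9 mice. Ctsd, the aspartic protease cathepsin D, lay between 834 and 2137 CPM (median 1091) in Trem2/Gpnmb macrophages and between 400 and 720 CPM (median 566) in the Trem2-low class, a log2 fold change of 1.26 ± 0.16 (edgeR adjusted p = 0.000343). The 2 ranges did not meet, which held for 0.189% of genes tested (0.0946% higher and 0.0946% lower), and all 9 mice moved the same way. Ctsl, the cysteine protease cathepsin L, lay between 264 and 1133 CPM in Trem2/Gpnmb macrophages and between 69.3 and 745 CPM in the Trem2-low class, with overlapping ranges but a rise in 9 of 9 mice (log2 1.37 ± 0.21, edgeR adjusted p = 0.00229). The other lysosome genes that rose included Creg1 (log2 1.13), a glycoprotein of the endolysosome, Ctsb (0.95) and Ctss (0.73), further cathepsins, Lgmn (0.76), the asparaginyl protease legumain, Tpp1 (0.72), a tripeptidyl peptidase, and Lamp1 (0.55), an abundant lysosomal membrane protein. Outside the list, Acp5, the tartrate-resistant acid phosphatase, rose by 1.67 ± 0.24 and Pld3, an endolysosomal nuclease, by 1.32 ± 0.19 on the log2 scale (edgeR adjusted p = 1.2e-05 and 7.9e-06). Fnip2, a folliculin partner, was the only one of 4 tested MiT/TFE pathway genes to rise (log2 0.95), and Mitf, a factor of that family, had 0.47 with an edgeR adjusted p of 0.205.

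The promoters of 3 lysosome genes that rose are shown because members of this group are known targets of MiT/TFE factors, which bind the 6-base motif CACGTG. Each is 300 bases of the RefSeq table for build GRCm38.p6, from 250 bases before to 50 after the gene's start, 5′ to 3′ on the gene's own strand, with CACGTG in capitals (its reverse complement is the same letters). Ctsd is at chr7:142387778-142388077 (minus strand), Lamp1 at chr8:13158911-13159210 (plus strand) and Atp6v1a, which encodes a subunit of the proton pump that acidifies lysosomes and rose by 0.63 ± 0.17 on the log2 scale, at chr16:44139210-44139509 (minus strand).
Ctsd: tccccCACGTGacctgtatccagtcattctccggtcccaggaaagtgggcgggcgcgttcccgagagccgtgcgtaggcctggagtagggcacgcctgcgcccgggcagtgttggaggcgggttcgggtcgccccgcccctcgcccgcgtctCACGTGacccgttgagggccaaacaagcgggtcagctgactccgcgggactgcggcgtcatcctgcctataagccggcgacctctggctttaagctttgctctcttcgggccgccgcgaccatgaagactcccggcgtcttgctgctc
Lamp1: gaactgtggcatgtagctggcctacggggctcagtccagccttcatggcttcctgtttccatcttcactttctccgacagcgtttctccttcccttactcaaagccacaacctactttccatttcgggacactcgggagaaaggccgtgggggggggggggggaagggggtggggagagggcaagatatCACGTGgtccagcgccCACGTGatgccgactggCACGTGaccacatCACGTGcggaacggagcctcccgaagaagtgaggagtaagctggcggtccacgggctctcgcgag
Atp6v1a: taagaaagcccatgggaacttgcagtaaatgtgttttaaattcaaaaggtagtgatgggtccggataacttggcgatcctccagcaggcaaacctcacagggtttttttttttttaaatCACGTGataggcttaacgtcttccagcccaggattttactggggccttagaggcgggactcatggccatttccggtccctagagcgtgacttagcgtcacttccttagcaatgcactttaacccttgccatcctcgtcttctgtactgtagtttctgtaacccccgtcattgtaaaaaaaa
Of the 20 lysosome genes that rose, 15 were in the table and 6 of these held the motif in at least 1 promoter (Atp6v1a, Ctsa, Ctsd, Ctsl, Lamp1 and Lgmn), and 8.09% of the 27025 gene symbols in the table did. A match is a description of the letters and not evidence of binding.

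Lipid genes followed in part. Of 16 tested genes of lipid uptake and efflux, 5 rose, 0 fell and 11 did not pass, with a median of 0.59. Fabp5, a fatty acid binding protein, lay between 141 and 1663 CPM (median 298) in Trem2/Gpnmb macrophages and between 57.0 and 460 CPM (median 154) in the Trem2-low class, and rose in 8 of 9 mice (log2 1.15 ± 0.19, edgeR adjusted p = 0.00107). Lipa, the lysosomal acid lipase, rose by 1.09 ± 0.15, Abca1, a cholesterol exporter, by 0.85 ± 0.17, Plin2, which coats lipid droplets, by 0.66 ± 0.13 and Soat1, which esterifies cholesterol, by 0.50 ± 0.14 on the log2 scale. Apoe, the lipid-carrying apolipoprotein among the markers of these cells, lay between 1767 and 9057 CPM (median 5410) in Trem2/Gpnmb macrophages and between 879 and 2785 CPM (median 1652) in the Trem2-low class. It was higher in 9 of 9 mice, but its log2 fold change of 1.44 ± 0.36 did not pass (edgeR adjusted p = 0.0549). Over 20 alternatives its fold change stayed positive and its adjusted p lay between 0.00014 and 0.633, under 0.05 in 4 of them, DESeq2 included (0.000847). Slc27a1, a fatty acid transporter outside the list, had the largest fold change of the genes that rose, with a median of 61.6 CPM in Trem2/Gpnmb macrophages and 9.31 CPM in the Trem2-low class (log2 2.04 ± 0.29, edgeR adjusted p = 7.4e-06), and was higher in 8 of 9 mice.

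Of 15 tested efferocytosis genes, which act in the uptake of dying cells, 4 rose, 0 fell and 11 did not pass. Mertk, a receptor kinase that binds phosphatidylserine through bridging proteins, rose by 0.75 ± 0.21 on the log2 scale, Itgav, the integrin αv chain, by 0.75 ± 0.18, Itgb5, a partner chain, by 0.97 ± 0.24, and Cd300a, a lipid-binding inhibitory receptor, by 0.66 ± 0.19. Outside the list, Itga6, a laminin-binding integrin chain, was higher in 8 of 9 mice (log2 1.96 ± 0.28, edgeR adjusted p = 1.8e-05), and Pdpn, the mucin-like protein podoplanin, in 9 of 9 (log2 1.42 ± 0.25, edgeR adjusted p = 0.000392). Sgk1, a kinase induced by hormones and salt, had a median of 164 CPM in Trem2/Gpnmb macrophages and 35.3 CPM in the Trem2-low class (log2 1.72 ± 0.31).

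The TREM2 signalling list had no gene past the threshold among 8 tested, and Tyrobp, its adaptor, had a log2 fold change of 0.25 ± 0.10 (edgeR adjusted p = 0.13). Cx3cr1, the fractalkine receptor and a marker of these cells, lay between 110 and 766 CPM (median 491) in Trem2/Gpnmb macrophages and between 94.997 and 372 CPM (median 208) in the Trem2-low class. It was higher in 7 of 9 mice and did not pass (log2 0.73 ± 0.23, edgeR adjusted p = 0.0929). Tgfbr1, a TGF-β receptor on the list that holds Cx3cr1 and microglial genes, rose by 0.69 on the log2 scale. Fcrls, an Fc-receptor-like gene used as a mark of microglia, went the other way. It lay between 25.5 and 204 CPM in Trem2/Gpnmb macrophages and between 109 and 399 CPM in the Trem2-low class and was lower in 9 of 9 mice (log2 -1.40 ± 0.15, edgeR adjusted p = 7.4e-08).

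MHC class II genes were lower in Trem2/Gpnmb macrophages. Of 13 genes 8 were tested, 7 fell and 0 rose, with a median log2 fold change of -0.94. H2-Ab1, a class II β chain, lay between 1001 and 3249 CPM (median 2279) in Trem2/Gpnmb macrophages and between 1625 and 7362 CPM (median 4470) in the Trem2-low class, a log2 fold change of -1.04 ± 0.09 (edgeR adjusted p = 6.0e-10). The ranges over mice overlapped, but each of the 9 mice was lower in its Trem2/Gpnmb macrophages. H2-Eb1 fell by 1.07, the invariant chain gene Cd74 by 0.97, H2-Aa by 0.89, and the peptide-loading genes H2-DMb1 and H2-DMa by 0.91 and 0.62 on the log2 scale. Ciita, the transactivator of these genes, had a median of 35.9 CPM in Trem2/Gpnmb macrophages and 94.1 CPM in the Trem2-low class (log2 -1.37 ± 0.24, edgeR adjusted p = 0.000298). Cd86, a costimulatory ligand, did not pass (log2 -0.36, edgeR adjusted p = 0.313).

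The promoters of H2-Aa at chr17:34287774-34288073 (minus strand) and H2-Eb1 at chr17:34305617-34305916 (plus strand) are given from the same table because class II genes moved together. Capitals mark CTGATTGG, the Y-box sequence of class II promoters, searched on both strands.
H2-Aa: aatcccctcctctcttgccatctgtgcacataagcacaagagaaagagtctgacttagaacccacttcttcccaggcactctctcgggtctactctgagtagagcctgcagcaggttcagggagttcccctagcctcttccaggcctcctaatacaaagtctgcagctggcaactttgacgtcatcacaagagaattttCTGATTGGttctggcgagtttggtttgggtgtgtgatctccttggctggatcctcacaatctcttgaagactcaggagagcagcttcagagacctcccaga
H2-Eb1: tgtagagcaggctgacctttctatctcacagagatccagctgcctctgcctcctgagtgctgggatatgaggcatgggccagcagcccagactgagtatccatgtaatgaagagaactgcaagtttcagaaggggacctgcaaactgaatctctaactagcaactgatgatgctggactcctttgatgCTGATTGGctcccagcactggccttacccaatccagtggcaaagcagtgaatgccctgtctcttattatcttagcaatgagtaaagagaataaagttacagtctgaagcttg
Of the 7 class II genes that fell, 4 were in the table and these 2 held CTGATTGG, and 4.70% of all gene symbols in the table did.

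Some genes associated with alternative activation were lower in Trem2/Gpnmb macrophages. Of 13 tested, 4 fell, 0 rose and 9 did not pass. Retnla, which encodes the secreted resistin-like α, lay between 637 and 11504 CPM (median 1645) in Trem2/Gpnmb macrophages and between 5663 and 26131 CPM (median 13964) in the Trem2-low class, and was lower in 9 of 9 mice (log2 -2.37 ± 0.51, edgeR adjusted p = 0.0327). Leaving out KO1, KO3, WT2, WT3 or WT4 in turn moved that adjusted p above 0.05, to between 0.0677 and 0.0851. Mgl2, a galactose-binding lectin, lay between 31.3 and 265 CPM (median 127) in Trem2/Gpnmb macrophages and between 151 and 790 CPM (median 583) in the Trem2-low class, also lower in 9 of 9 mice (log2 -2.03 ± 0.18, edgeR adjusted p = 1.8e-07). Ccl24, an eosinophil-attracting chemokine, fell by 1.34 ± 0.27 and Clec10a, a lectin related in sequence to Mgl2, by 1.31 ± 0.29 on the log2 scale. Arg1, arginase 1, had a log2 fold change of 1.03 ± 0.29 and did not pass (edgeR adjusted p = 0.0783), being higher in 6 and lower in 3 mice.

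Further genes that fell were Cd226, an adhesion receptor better known from T cells (log2 -2.25 ± 0.32), Fgfr1, a fibroblast growth factor receptor (-1.88 ± 0.25), Cavin1, a caveola coat protein (-1.39 ± 0.30), and Hpgd, which degrades prostaglandins (-1.36 ± 0.25). Of 8 tested genes of vessel-associated resident macrophages 3 fell and 0 rose, namely F13a1, a clotting factor subunit, by 0.79 on the log2 scale, and the lectins Mgl2 and Clec10a named above. Among these 8 genes, 7 had a log2 fold change below 0 and 1 above 0 (0.36). Lyve1 (log2 -1.31, edgeR adjusted p = 0.257) and Cd163, a hemoglobin scavenger receptor (log2 -1.56, edgeR adjusted p = 0.0574), did not pass. Vcan, a proteoglycan of monocytes, fell by 1.24 ± 0.26, while Ccr2 did not pass (log2 -0.22, edgeR adjusted p = 0.169). Of 19 genes of the response to tissue dissociation 4 fell and 0 rose, namely Jund, a transcription factor subunit, Dnajb1, a chaperone, and the heat shock genes Hspa1a (log2 -0.72) and Hspa1b (-0.92), near-identical copies whose reads may not be separable; the part of dissociation in the other differences was not tested. No gene of 11 inflammatory, 14 growth factor and matrix or 11 glycolysis and hypoxia genes passed, and 1 of 17 interferon response genes (Usp18, log2 -0.92) and 1 of 14 class I genes (Tap1, -0.60) fell.

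**Figure D1:**
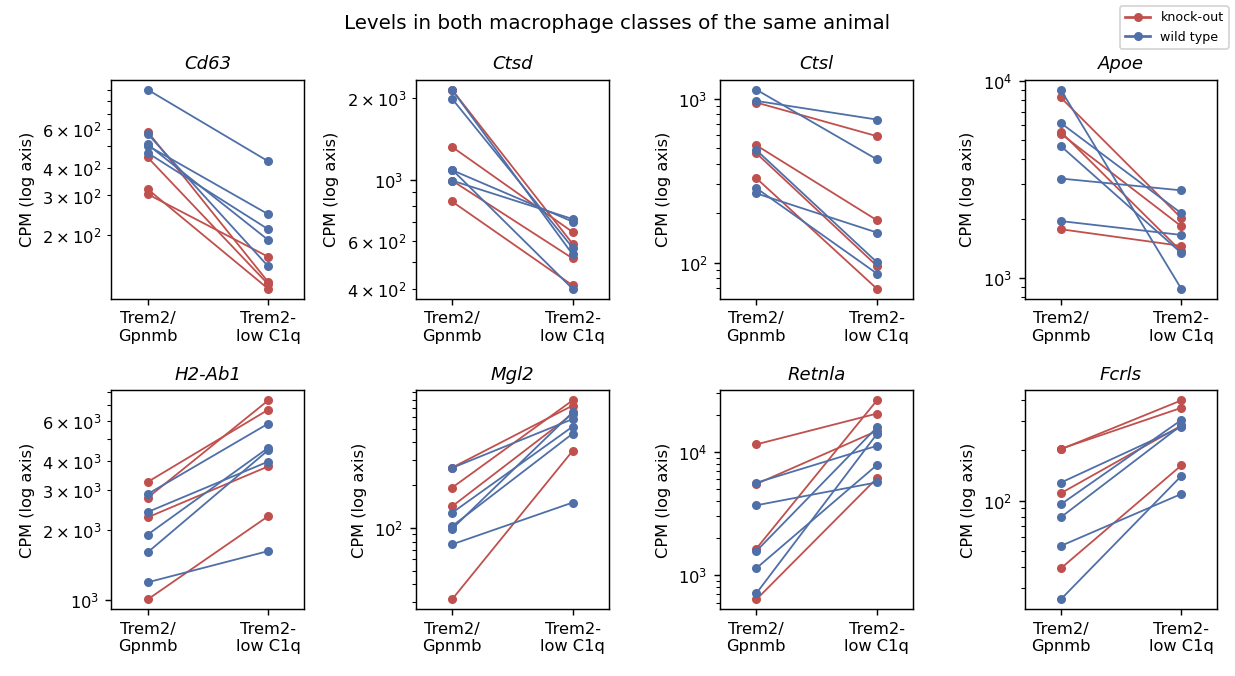
TMM-scaled level (CPM, log axis) of 8 genes in Trem2/Gpnmb macrophages (left) and Trem2-low C1q macrophages (right) of 9 mice, a line per mouse. Cd63, Ctsd, Ctsl and Apoe lie higher and H2-Ab1, Mgl2, Retnla and Fcrls lower in Trem2/Gpnmb macrophages in all 9 mice; Apoe did not pass the test.

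The number of genes that passed varied with the mice in the fit. Without WT4, which gave 42 of the 209 members, 144 genes passed, and without WT2 166. Well 1 alone gave 40 genes from 4 mice and well 2 alone 87 from 5, where well, number of mice and number of cells changed together. With the thresholds scaled to each cell's depth, 161 cells were members, 109 of them shared with the main rule, at a median of 6043 UMIs; 220 genes passed from 7 mice and 125 of these were among the 264.

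Relative to Spp1 macrophages, the Trem2/Gpnmb macrophages were higher in the MHC class II genes H2-Ab1 and Cd74 and lower in the cathepsin genes Ctsd and Ctsl and in Fabp4. Only 4 mice (KO1, WT1, WT2 and WT4) had 10 cells in each class, so knock-out cells came from a single mouse. Of 3321 genes tested with the mouse as a block, 15 (0.452%) passed in edgeR's quasi-likelihood test, 8 higher (0.241%) and 7 lower (0.211%) in Trem2/Gpnmb macrophages. Without WT1 31 genes passed, and without KO1 or WT4 24.

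H2-Ab1 had 1017, 1206, 1637 and 1968 CPM in Trem2/Gpnmb macrophages of KO1, WT1, WT2 and WT4, against 450, 264, 452 and 735 CPM in their Spp1 macrophages (log2 1.65 ± 0.16, edgeR adjusted p = 5.4e-05). All values of Trem2/Gpnmb macrophages lay above all values of Spp1 macrophages, and the 2 classes did not overlap in 3.91% of genes tested (1.99% higher and 1.93% lower). Cd74 rose by 1.42 ± 0.19 on the log2 scale, and of 7 tested class II genes all had a fold change above 0, with a median of 1.42, though only these 2 passed. H2-Eb1 had a log2 fold change of 2.14 ± 0.32 and missed the threshold (edgeR adjusted p = 0.0639). Tmem176b, a membrane protein of antigen-presenting cells whose gene lies beside a related copy, had 47.7, 241, 163 and 376 CPM in Trem2/Gpnmb macrophages, against 19.1, 19.6, 28.3 and 53.0 CPM in Spp1 macrophages of the same mice (log2 2.70 ± 0.32, edgeR adjusted p = 0.000116). Batf3, a transcription factor needed for type 1 dendritic cells, rose by 2.15 ± 0.34, Mgl2 by 1.69 ± 0.36, Hspa1b and Hspa1a by 1.26 and 1.18, and the chemokine Ccl4 by 0.89 ± 0.19 on the log2 scale. Xcr1 had 0 UMIs in the members, as given above. The sign of Ccl4 turned with thresholds scaled to depth, with 5 or more Trem2 and Gpnmb UMIs and with sums of at least 5 cells, and its call was lost without WT1, WT2 or WT4 (edgeR adjusted p between 0.115 and 0.19).

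Ctsd had 1342, 1102, 2022 and 2194 CPM in Trem2/Gpnmb macrophages of KO1, WT1, WT2 and WT4, against 2803, 1906, 4728 and 5849 CPM in their Spp1 macrophages (log2 -1.13 ± 0.12, edgeR adjusted p = 6.6e-05). It was lower in each of the 4 mice, so Ctsd stood between the Trem2-low and the Spp1 class, and Ctsl fell by the same 1.13 ± 0.14. Of 30 tested lysosome genes 2 fell and 0 rose, and 26 had a fold change below 0, with a median of -0.36. Fabp4, a fatty acid binding protein of fat cells and macrophages, had 11.9, 17.2, 25.1 and 12.2 CPM in Trem2/Gpnmb macrophages, against 90.5, 124, 141 and 129 CPM in Spp1 macrophages (log2 -2.86 ± 0.33, edgeR adjusted p = 0.000102). The groups did not overlap. In members of these mice, 3 UMIs correspond to 11.1, 23.4, 11.7 and 7.89 CPM before TMM scaling. The Fabp4 levels of Trem2/Gpnmb macrophages thus lay near that floor, in WT1 below it, and the size of the change is uncertain. Clec4d, a C-type lectin receptor, fell by 1.38 ± 0.24, Pdpn by 1.31 ± 0.22, the glycolytic enzyme gene Pgam1 by 0.81 ± 0.16 and the ferritin light chain gene Ftl1 by 0.76 ± 0.15 on the log2 scale; Pgam1 and Ftl1 have processed copies that can share reads. Apoe (log2 -0.50), Fabp5 (-1.24), Cd63 (-0.41), Lipa (-0.38), Cx3cr1 (0.88) and Retnla (3.05) did not pass, with edgeR adjusted p between 0.102 and 0.643.

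**Figure D2:**
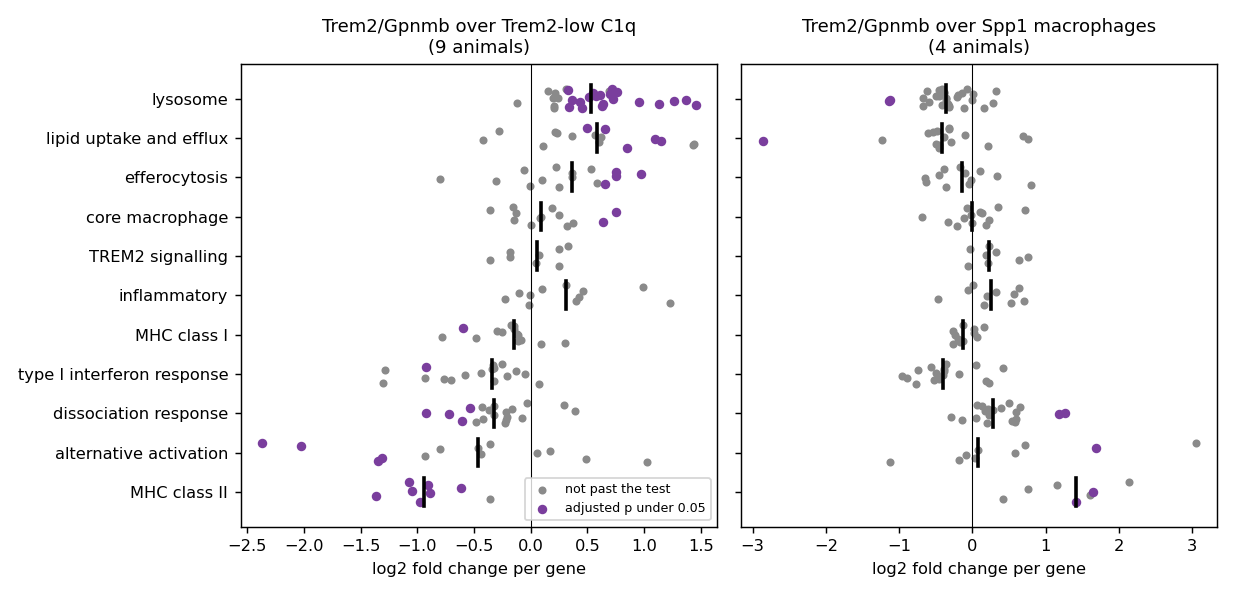
Log2 fold change of each tested gene in 11 gene lists, Trem2/Gpnmb over Trem2-low C1q macrophages on the left and over Spp1 macrophages on the right. Points are genes, purple where the adjusted p was under 0.05, and the black bar is the list's median; the lysosome median is 0.53 on the left and -0.36 on the right, and the MHC class II median is -0.94 on the left and 1.42 on the right.

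The members were not uniform. The bins below hold the Trem2/Gpnmb and the Trem2-low C1q macrophages, without the Spp1 macrophages. Over cells with 0, 1, 2, 3, 4 and 5 or more Trem2 and Gpnmb UMIs, the pooled sum of the 35 lysosome genes was 14613, 15418, 16889, 18170, 18332 and 24875 CPM. For the 13 MHC class II genes the pooled sums were 27651, 22469, 20154, 17494, 14904 and 10270 CPM. Pooled lysosome genes differed more between the 32 cells with 4 UMIs and the 101 with 5 or more than across the threshold, between the 111 cells with 2 and the 76 with 3. The last bin has no upper limit, so the steps are unlike in width. Only 2 mice had 5 or more cells at 4 UMIs. From 4 to 5 or more UMIs, lysosome genes went from 19715 to 22559 CPM in KO1 and from 17359 to 20713 CPM in WT3. Retnla had 13831, 7024, 7446, 2975, 3515 and 1240 CPM over the same bins, uneven between neighbours. In WT5 it was 4641 CPM at 2 UMIs and 9651 CPM at 3, opposite to the pooled values. These are descriptions with no test, since median depth moved with the bins, with 5177.5, 5596, 5785, 6367, 7380 and 10123 UMIs per cell, and its part was not tested.

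**Figure D3:**
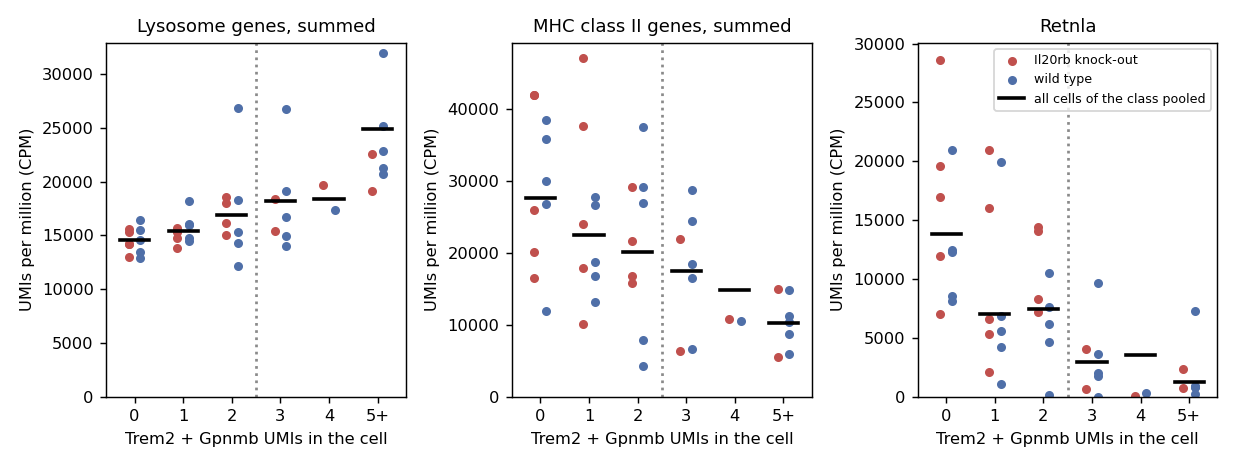
Summed CPM of lysosome genes (left), of MHC class II genes (middle) and of Retnla (right) by the number of Trem2 and Gpnmb UMIs per cell. The cells are Trem2/Gpnmb and Trem2-low C1q macrophages, without the Spp1 macrophages. Points are mice with 5 or more cells in the bin, the black bar pools all cells, and the dotted line is the member threshold; pooled lysosome CPM is 14613 at 0 and 24875 at 5 or more UMIs, and pooled MHC class II CPM is 27651 and 10270.

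The 54 members with a Gpnmb UMI stood at the far end. In the 4 mice with at least 5 such cells, summed lysosome genes averaged 31748 ± 8329 CPM, against 18427 ± 2414 CPM over 10 mice in members without Gpnmb (SD). MHC class II genes averaged 6231 ± 2343 CPM in members with Gpnmb and 16501 ± 5421 CPM in those without. Ctsd averaged 2773 ± 944 CPM with Gpnmb and 818 ± 175 CPM without, and Mgl2 4.83 ± 6.13 CPM with Gpnmb and 175 ± 92.5 CPM without (SD, n = 4 and 10). With Gpnmb, Mgl2 was 0 CPM in KO1 and WT3, 12.8 CPM in WT2 and 6.57 CPM in WT4, levels too low to tell from 0. Median depth was 9528.5 UMIs per cell with Gpnmb and 7861 without, and its part was not tested. The mice differ between the 2 sets and no test was made: the planned test of Gpnmb-leading against Trem2-leading members could not be run, because the largest number of Gpnmb-leading cells in a mouse was 6 (WT2). The 34 members with 5 to 9 Spp1 UMIs resembled those with Gpnmb in direction when pooled, with 27115 CPM of lysosome and 6229 CPM of MHC class II genes, against 19431 and 17014 CPM in the 113 members without Spp1. Only 3 mice had 5 or more such cells. Lysosome genes were higher than without Spp1 in WT2 (41071 and 24286 CPM) and WT4 (27670 and 17503 CPM) but lower in KO1 (18618 and 22398 CPM). MHC class II genes were lower in all 3 mice. Median depth was 10452.5 and 7206 UMIs per cell, and its part was not tested.

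The share of Trem2/Gpnmb macrophages was lower on average in knock-out mice, by less than the spread between mice. They were 2.85, 4.10, 4.06, 2.64 and 1.33% of all cells in KO1 to KO5 and 1.45, 5.34, 4.20, 8.40 and 2.42% in WT1 to WT5. WT4 was highest and the groups overlapped. The mean was 2.996 ± 1.15% in knock-out and 4.36 ± 2.72% in wild-type mice (SD, n = 5 each), a difference of -1.37 percentage points (exact two-sided permutation p = 0.373, the smallest possible being 0.00794). Of non-cycling C1q macrophages, they were 12.9 ± 3.90% in knock-out and 19.7 ± 9.57% in wild-type mice (SD, n = 5 each), a difference of -6.82 points (exact permutation p = 0.198, adjusted over both shares 0.373). Counting error was wide, with an exact 95% interval of 6.12 to 11.2% for the share of all cells in WT4 and 0.608 to 2.501% in KO5, which covers counting error only.

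The depth of the cells differed, and alternatives that take it into account gave these values. With thresholds scaled to each cell's depth, the difference in the share of all cells was -1.16 points (exact permutation p = 0.381). After every cell was thinned to 3000 UMIs, which left out 537 knock-out and 1082 wild-type cells below that depth, the share of all cells averaged 1.09% in knock-out and 2.93% in wild-type mice, a difference of -1.83 points (exact permutation p = 0.143). In well 1 alone the difference in the share of C1q macrophages was -8.71 points (exact permutation p = 0.0556) and in well 2 alone -5.43 points (exact permutation p = 0.437). Without WT4 the difference was -0.36 points in the share of all cells and -3.34 points in the share of C1q macrophages.

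**Figure D4:**
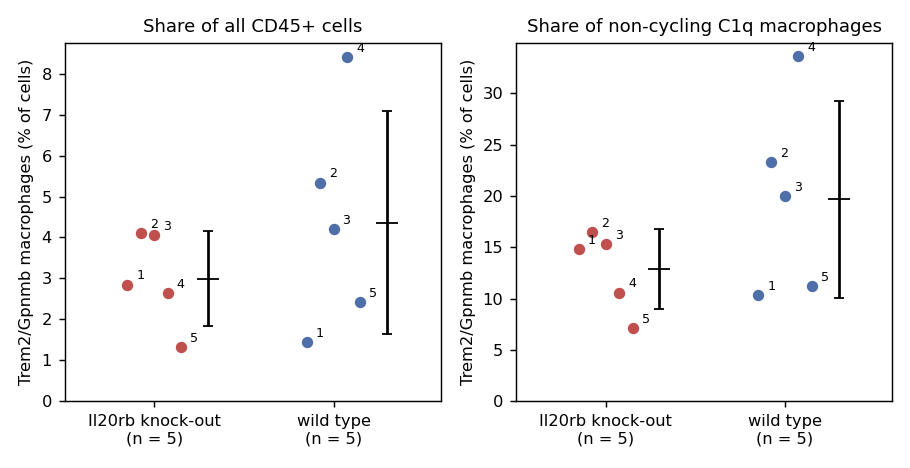
Trem2/Gpnmb macrophages as a percentage of all CD45+ cells (left) and of non-cycling C1q macrophages (right) in each mouse, numbered by mouse, with mean and SD (black). Knock-out mice span 1.33 to 4.10% of all cells and wild-type mice 1.45 to 8.40%.

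Gene levels within Trem2/Gpnmb macrophages were then compared between genotypes, over the 4 knock-out and 5 wild-type mice with 10 or more members. Of 1871 genes tested, 0 passed in edgeR's quasi-likelihood test (0% called), 67 had an unadjusted p under 0.05, and DESeq2 called 2, both lower in knock-out cells. The genes with the smallest p in each direction are given as values.

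Rpl29, a ribosomal protein gene with many processed copies, had 765, 489, 895 and 536 CPM in KO1 to KO4 and 1268, 1265, 1527, 1741 and 1434 CPM in WT1 to WT5. It was on a list of genes that changed in knock-out cells in earlier results of these data, so it is no independent observation. All knock-out values lay below all wild-type values (log2 -1.10 ± 0.21, edgeR adjusted p = 0.196). Over all 1871 genes tested, 24 (1.28%) did not overlap between genotypes (0.588% higher and 0.695% lower in knock-out mice), and the genes named here were taken by their smallest p. Cast, the calpain inhibitor calpastatin, averaged 99.5 ± 12.6 CPM in knock-out and 195 ± 15.0 CPM in wild-type mice (log2 -0.93), and the metal-binding Mt1 averaged 876 ± 389 and 1713 ± 204 CPM in knock-out and wild-type mice (log2 -0.95; SD, n = 4 and 5). Neither overlapped between genotypes, and both had edgeR adjusted p of 0.978 or more. The chemokine gene Cxcl1 had 66.7, 12.9, 0 and 55.5 CPM in KO1 to KO4 and 855, 157, 319, 89.0 and 363 CPM in WT1 to WT5, and Dock10, a GTPase activator, had a log2 fold change of -1.01 ± 0.30.

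Among genes with positive values, Rnf114, a ubiquitin ligase, averaged 139 ± 32.9 CPM in knock-out and 62.8 ± 15.0 CPM in wild-type mice, and Cct3, a chaperonin subunit, 173 ± 51.4 and 87.8 ± 30.8 CPM in knock-out and wild-type mice (SD, n = 4 and 5); neither overlapped. Sdc3, a heparan sulfate proteoglycan (log2 1.02 ± 0.27), Parp14, an ADP-ribosyltransferase linked to interferon (1.53 ± 0.45), and Folr2, a folate receptor of resident macrophages (1.42 ± 0.42), overlapped between genotypes. Each of these 5 had an edgeR adjusted p of 0.998.

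**Figure D5:**
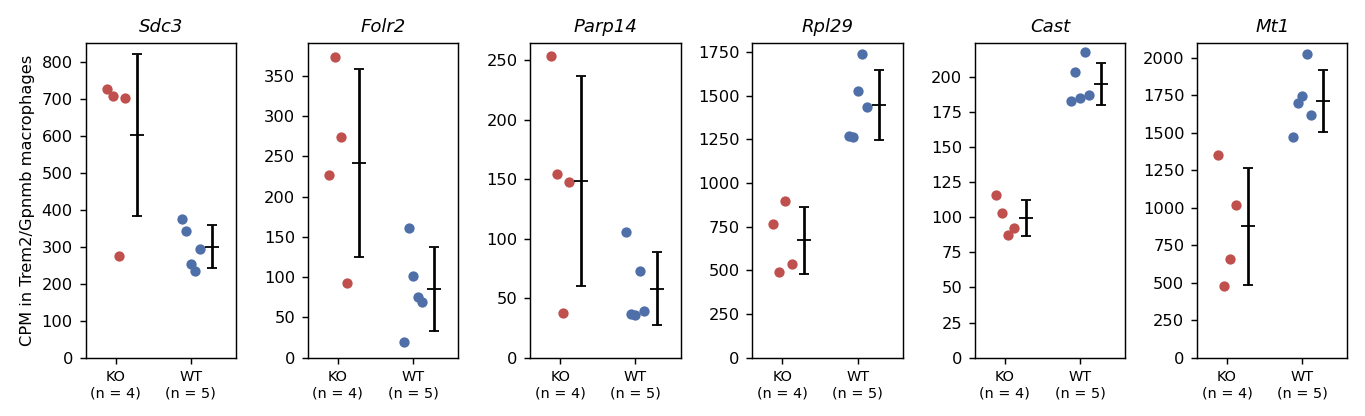
TMM-scaled level (CPM) in Trem2/Gpnmb macrophages of 6 of the genes with the smallest p by genotype, in 4 knock-out (left) and 5 wild-type (right) mice, with mean and SD. Rpl29, Cast and Mt1 do not overlap between genotypes, Sdc3, Folr2 and Parp14 do, and none passed the adjusted threshold.

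Interferon response and MHC class I genes had positive fold changes without passing. Only 7 of the 20 interferon genes and 9 of the 16 class I genes on the lists were tested here, after the filter on low counts. All 7 tested interferon genes lay above 0, with a median log2 fold change of 1.32, and all 9 class I genes, with a median of 0.65. Over all genes the median was 0.02 and 52.1% lay above 0. Of either list, 0 genes passed. Irf7, an interferon-induced transcription factor, had 809, 219, 37.3 and 795 CPM in KO1 to KO4 and 404, 120, 43.5, 26.4 and 39.3 CPM in WT1 to WT5. KO1, KO4 and WT1 were high, and KO3 was as low as most wild-type mice (log2 2.06 ± 1.01, edgeR adjusted p = 0.998). KO1, KO4 and WT1 were the 3 mice of this comparison with the highest Ly6c2, in their members and in cells outside the 3 macrophage classes. Bst2, the antiviral protein tetherin, followed the same mice, with 2517, 785, 298 and 1516 CPM in KO1 to KO4 and 865, 462, 319, 224 and 295 CPM in WT1 to WT5. The part of these mice in the list medians was not tested.

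For the genes that marked the class, Apoe averaged 6029 ± 3129 CPM in knock-out and 5583 ± 3052 CPM in wild-type mice, and Cx3cr1 572 ± 313 and 392 ± 202 CPM in knock-out and wild-type mice (SD, n = 4 and 5). Ctsd averaged 1524 ± 702 and 1630 ± 614 CPM, H2-Ab1 2666 ± 1117 and 2230 ± 726 CPM, Mgl2 181 ± 114 and 149 ± 83.5 CPM and Retnla 5617 ± 5820 and 2855 ± 2313 CPM in knock-out and wild-type mice. All 6 overlapped and had edgeR adjusted p of 0.998 or more. The lysosome list was even, with 14 of 28 tested genes above 0 and a median of -0.01, and 8 of 11 tested lipid-associated macrophage genes lay below 0, among them Cd9, a tetraspanin, with 169, 232, 423 and 148 CPM in KO1 to KO4 and 173, 439, 726, 528 and 579 CPM in WT1 to WT5 (log2 -1.03 ± 0.40, edgeR adjusted p = 0.998).

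Whether the genotype difference itself differed between Trem2/Gpnmb and Trem2-low C1q macrophages was tested as an interaction. Of 5409 genes, 0 passed in edgeR's test (0% called), 225 had an unadjusted p under 0.05 and DESeq2 called 0. The smallest p values belonged to Irf7 (log2 1.34 ± 0.33), Ifit1 (1.56), Ifi204 (1.08) and Ly6e (0.77), interferon-induced genes, and Sar1a (1.31), a vesicle GTPase, on the positive side, and to Clec4b1 (-1.50), a C-type lectin, Cast (-1.11), Ebp (-1.38), a sterol isomerase, Cd9 (-1.06) and Usf2 (-1.13), a transcription factor, on the negative side, with edgeR adjusted p between 0.856 and 0.999. Of the 20 interferon genes on the list 18 were tested, and 17 of these lay above 0, with a median of 0.78, beside a median of -0.03 over all genes.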

How the data were processed

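The deposited table holds raw UMI counts for 32285 genes and 6054 cells, per the values and the file headers, with each cell's well and hashtag in its name. Cell Ranger 6.0.1, R 4.0.5 and build mm10 are named in the submitters' processing notes. The deposited cells had at least 1000 UMIs and at most 9.99% mitochondrial UMIs. Gene IDs were paired with symbols for 32158 genes. Mouse and genotype came from the hashtag in the cell name, as the labels assign it.

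UMI counts were summed per mouse and class where a mouse had 10 or more cells, filtered with filterByExpr, scaled by TMM and tested with edgeR 4.0.16 (quasi-likelihood, robust), with Benjamini-Hochberg adjustment over all genes tested. DESeq2 1.42.0 was an alternative. Shares were compared by exact permutation over mice. The edgeR fits were tested on simulated data, drawn with the same dispersion for every gene and with no differences between mice other than depth. The mice of these data did differ, so the outcome need not carry over to them. A Scrublet run (scanpy 1.11.5) called 3 cells (0.0496%), which is not a working call, so no cells were removed and the top 5% of scores were left out as an alternative. Nothing records whether doublets were removed before deposit.

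The members and gene lists were chosen with earlier results of these data known. Named genes were all those called in a comparison with 20 or fewer calls, otherwise the 10 with the largest change in each direction; with fewer than 10 calls, also the 5 with the smallest p in each direction; and members of the lists and markers; some genes of these lists are not reported here. Floors of 3 counts and intervals cover counting error only.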

Additional observations from a re-analysis of the deposited data

Results flagged for a closer look

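Single mice lay apart from the rest of their genotype for 5 genes in Trem2/Gpnmb macrophages, among 52 groups of 4 or 5 mice examined, where chance flags about 1 in 20. Dock10 was 129.39 CPM in KO4, above the other 3 knock-out mice. Sdc3 was 273.47 CPM in KO3, below the other 3 knock-out mice. In wild-type mice, Irf7 was 403.53 CPM and H2-T23, a non-classical MHC class I gene, 384.32 CPM in WT1, each above the other 4, and Mgl2 was 294.58 CPM in WT5, above the other 4.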

How the results depend on the processing

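The differences in share between knock-out and wild-type mice kept their negative sign and missed the threshold under every alternative run; leaving out a mouse gave -2.09 to -0.36 points of all cells and -9.16 to -3.34 points of C1q macrophages. For genotype within Trem2/Gpnmb macrophages (0 genes), DESeq2 called 2, no filter on low counts 13, sums of at least 20 cells 266 and well 1 alone 119 (1 knock-out mouse each), Trem2 and Gpnmb of 5 or more 83 (1 knock-out mouse), well 2 alone 38 (2 knock-out mice), and thresholds scaled to depth 3; leaving out a mouse gave 0 to 1. For the interaction (0), no filter gave 8, 20 cells 7, scaled thresholds 5, Trem2 and Gpnmb of 5 or more 23 and well 2 alone 4; leaving out a mouse gave 0 to 3. Against Trem2-low C1q macrophages (264), DESeq2 called 173, no filter 436 (28.7% of them higher, against 51.1%), 20 cells 160, Trem2 and Gpnmb of 5 or more 147, well 1 alone 40 (37.5% higher) and well 2 alone 87; leaving out a mouse gave 144 to 266. Against Spp1 macrophages (15), DESeq2 called 24 and no filter 110. Sums of at least 20 cells gave 75, scaled thresholds 43 and well 1 alone 47, each from only 2 mice. Trem2 and Gpnmb of 5 or more gave 7, and sums of at least 5 cells, a setting added after seeing the data, 58 from 7 mice. Leaving out a mouse gave 20 to 31 (31 without WT1, 24 without KO1 or WT4). The causes were not tested.

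Of single genes named or listed against Trem2-low C1q macrophages, 1246 values over the alternatives kept sign and call, 194 (44 genes) lost the call and 31 gained it. Signs turned for 9 named genes. By genotype, Apoe had -0.074 with no filter, -1.76 with 20 cells, -0.58 with scaled thresholds, -2.21 with Trem2 and Gpnmb of 5 or more, -1.92 in well 1, -0.28 in well 2 and -0.24 to 0.43 with a mouse left out; Cx3cr1 had -1.63 with 20 cells, -2.01 with 5 or more UMIs, -1.53 in well 1 and -0.16 in well 2; H2-Ab1 had -1.06, -1.17, -1.01 and -0.25 in the same order; Mgl2 had -1.76, -0.72 and -2.51 in the first 3 and -0.31 to 0.69 with a mouse left out; Retnla had -0.81 with 20 cells and -0.92 in well 1; and Ctsd had -0.48 to 0.067 with a mouse left out. Clec4b1 in the interaction had 0.14 and Cst3 against Trem2-low C1q macrophages 0.12 with scaled thresholds. Ccl4 against Spp1 macrophages had -1.01 with scaled thresholds, -0.50 with 5 or more UMIs and -0.18 with 5 cells. The causes were not tested. No paired analysis was possible because both genotypes were pooled in each library, the replicate numbers of the labels number wells, and hashtag numbers pair no mice across genotypes; the comparisons of classes already use the mouse as a block. The test of Gpnmb-leading against Trem2-leading members and the comparison with Spp1 macrophages in well 2 alone were not run, for lack of mice with enough cells. The summed members of a mouse held 66424 to 380452 UMIs, so 3 UMIs correspond to 7.89 to 45.2 CPM, and lower levels cannot be told from 0.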

Other observations

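Beyond the comparisons above, 3 genes from a list of those that changed across cell classes in knock-out cells in earlier results of these data had few UMIs in Trem2/Gpnmb macrophages. The unnamed transcript Gm42031 lay between 0 and 15.0 CPM in knock-out and between 31.1 and 89.8 CPM in wild-type members (3 and 67 UMIs in all). AC102496.1 lay between 0 and 15.0 CPM in knock-out and between 7.78 and 33.5 CPM in wild-type members (5 and 29 UMIs), and Nudt16, a nucleotide hydrolase, between 9.83 and 45.2 CPM in knock-out and between 0 and 16.3 CPM in wild-type members (19 and 8 UMIs), so the mice of both genotypes overlapped for these 2. Wild-type members held more UMIs in all, and 3 UMIs correspond to up to 45.2 CPM in a mouse. These genes were chosen after their values were seen and were not tested by genotype in the members.

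Cd93, a surface glycoprotein of phagocytes, and the complement receptor C5ar1 were among 9 tested complement genes, and both rose in Trem2/Gpnmb relative to Trem2-low C1q macrophages (log2 0.91 and 0.47, edgeR adjusted p = 0.000656 and 0.0214), with 0 of the list falling. The ferritin chain genes Ftl1 (log2 0.65) and Fth1 (0.46) rose among 10 tested iron and oxidative stress genes. The galectin genes Lgals1 (0.54) and Lgals3 (0.47) rose among 12 tested lipid-associated macrophage genes. Tlr13, a sensor of bacterial RNA, rose by 0.75 and Clec4a1, a C-type lectin, fell by 0.58 among 11 tested pattern recognition genes. Il6ra, the interleukin-6 receptor chain, fell by 0.58 on the log2 scale.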
